A study of Mus musculus with 15 samples.

Results

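Metallothionein and zinc transport transcripts were compared between single proximal tubules dissected by hand from mouse kidney and RNA of the whole kidney. The 8 genes were taken by symbol from the 47069 genes of the expression table: the metallothioneins Mt1 and Mt2, their transcriptional regulator Mtf1, the zinc exporter Slc30a1 and the zinc importers Slc39a4, Slc39a5, Slc39a8 and Slc39a14. All 8 symbols were found once. Expression was given in TPM, a level scaled to transcript length and to a common total in each library.

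Metallothioneins are small cysteine-rich proteins that bind zinc, copper and cadmium in the cytosol, and in the kidney they are known for holding cadmium and for buffering zinc. Free zinc activates MTF1, a zinc-finger transcription factor that binds short metal response elements and drives Mt1, Mt2 and Slc30a1. Proteins of the SLC39 (ZIP) family carry zinc into the cytosol from outside the cell or from organelles, and those of the SLC30 (ZnT) family carry it out of the cytosol. The proximal tubule, which takes back most filtered solutes, runs through an S1, an S2 and an S3 segment.

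All mice were C57BL/6 males aged 2 months, with no genotype change or treatment given in the labels. The 12 tubule libraries were labelled PTS2 and came in 3 sets, m1, m2 and m3, of 4 replicates each. The meaning of the letter m is not given. The other 3 libraries were whole kidney. The labels do not say which libraries came from separate animals, so each p-value below measures the spread between libraries, which may in part be technical. TPM keep no sequencing depth, so no counting error or detection limit can be attached to a value.

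The proximal identity of the tubules was checked with marker lists. The sum of 8 markers shared by all proximal segments was 19824 to 27172 TPM in the tubules and 17355 to 19446 TPM in whole kidney. The higher sum was carried mainly by Slc27a2, at a mean of 9166 TPM in tubules and 4620 TPM in whole kidney. Of the 8 markers, 2 were above every kidney library in all tubules. Slc4a4 was below in all tubules (mean 95.1 TPM against 224 TPM). The S1 markers Slc5a2, Slc5a12 and Slc2a2 summed to 4.23% to 9.31% of the kidney mean. The S2 markers Slc22a6 and Slc22a8 ranged from 48.6% to 152% of it, and the S3 markers Slc7a13, Slc5a1 and Atp11a from 158% to 248%. The 2 S2 markers went different ways. Slc22a8 was below whole kidney in all tubules, at 24.72 to 160.99 TPM against 261.29 to 283.67 TPM. Slc22a6 overlapped whole kidney and had the higher mean in tubules, at 585 TPM against 486 TPM. The S3 sum was carried mainly by Slc7a13, at a mean of 1803 TPM in tubules and 773 TPM in whole kidney. It was the only 1 of the 3 S3 markers above every kidney library in all tubules. Slc5a1 (59.5 TPM against 48.7 TPM) and Atp11a (557 TPM against 360 TPM) had higher means but overlapped. The S3 sum was thus high for libraries labelled PTS2, and the label is used here as a name only. Of 38 markers of non-proximal cells, 35 were below every kidney library in all 12 tubules. Replicate 3 of set m3 stood apart, with thick ascending limb markers at 56.1% of the kidney mean against at most 2.17% in the other 11 tubules. The Mt1, Mt2 and pooled differences from whole kidney are given with and without it. Endothelial markers were at 8.47% to 28.6% of the kidney mean and macrophage markers at 27.4% to 79.9%, the latter carried mainly by Csf1r (39.1 TPM in tubules and 21.1 TPM in whole kidney).

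The promoters of the metal-responsive members are shown first because Mt1, Mt2 and Slc30a1 are classical MTF1 targets and yet differed from whole kidney in opposite directions. Each sequence holds the 250 bases before the gene start in RefSeq (GRCm38.p6), written 5′ to 3′ on the gene's strand. Capitals mark matches to TGCACNC or TGCGCNC, the core of the metal response element, searched on both strands. The windows are chr8:94172368-94172617 for Mt2, chr8:94178839-94179088 for Mt1 and chr1:191906531-191906780 for Slc30a1, all on the plus strand.
Mt2: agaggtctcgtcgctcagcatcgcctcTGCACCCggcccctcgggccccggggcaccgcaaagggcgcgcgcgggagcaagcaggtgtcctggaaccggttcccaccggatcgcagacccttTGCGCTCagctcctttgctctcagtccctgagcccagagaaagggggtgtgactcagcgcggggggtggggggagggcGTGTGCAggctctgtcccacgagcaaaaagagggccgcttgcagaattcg
Mt1: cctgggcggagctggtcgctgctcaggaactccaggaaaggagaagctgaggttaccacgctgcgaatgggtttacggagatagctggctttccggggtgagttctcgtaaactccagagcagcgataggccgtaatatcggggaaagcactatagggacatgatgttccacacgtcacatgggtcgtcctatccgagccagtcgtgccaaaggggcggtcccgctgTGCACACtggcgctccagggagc
Slc30a1: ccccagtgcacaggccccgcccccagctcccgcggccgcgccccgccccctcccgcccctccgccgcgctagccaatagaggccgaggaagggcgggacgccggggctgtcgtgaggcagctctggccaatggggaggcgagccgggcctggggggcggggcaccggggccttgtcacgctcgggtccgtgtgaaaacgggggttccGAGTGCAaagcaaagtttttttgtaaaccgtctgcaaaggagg

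Over the full RefSeq window of 300 bases, which adds 50 bases after the start, Mt2 held 4 matches, Mt1 3 and Slc30a1 2. Mt2 had 3 of its 4 before the start, Mt1 had 1 of its 3 there, and Slc30a1 had 1 of its 2. At least 1 match was found in 25.7% of all 32851 windows of that length, at least 2 in 7.11%, at least 3 in 1.97% and at least 4 in 0.517%. Of the other members with entries, Slc39a8 and Slc39a5 each had 1 match in 1 of their windows and none in the other, and Mtf1 had none. Slc39a4 and Slc39a14 had no entry. A match is a stretch of letters and not a measured binding site. Mt2 and Mt1 lie next to each other on chromosome 8. In GENCODE M21 (GRCm38), Mt2 spans 94172664 to 94173568 and Mt1 spans 94179082 to 94180327, with 5513 bases between them. Transcripts of Mt1 start at 3 positions in that annotation, 94179082, 94179211 and 94179241, so the printed Mt1 window describes the most upstream of them. All 3 Mt1 matches lie before the 2 later starts. Transcripts of Mt2 start there at 94172664 and 94172860, both after the end of the printed Mt2 window at 94172617. The counts of matches before the start thus hold for the RefSeq starts only.

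Metallothionein transcripts were far lower in the tubules than in whole kidney. Mt1 was at 417.37, 360.08 and 473.72 TPM in the 3 kidney libraries, on average 417 ± 56.8 TPM (SD, n = 3). That placed it 361st among all genes of whole kidney. In the tubules the m1 replicates gave 3.64, 0.06, 11.84 and 6.82 TPM, the m2 replicates 1.62, 5.79, 3.64 and 3.73 TPM, and the m3 replicates 1.23, 1.17, 95.27 and 0.74 TPM. Every tubule was below every kidney library, and 11 of the 12 lay under 12 TPM. The median tubule, at 3.64 TPM, held 0.873% of the kidney mean, which is 115-fold lower. The mean over tubules was 11.3 ± 26.6 TPM (SD, n = 12) and 3.66 ± 3.45 TPM (SD, n = 11) without replicate 3 of m3. On the log2(TPM + 1) scale, which understates the fold of low values, the difference was -6.43 ± 0.94 (SE, limma adjusted p = 2.81e-05). Without replicate 3 of m3 it was -6.83 (limma adjusted p = 6.07e-08).

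Mt2 showed the same separation at a lower TPM level. It stood at 33.30, 36.97 and 51.91 TPM in whole kidney, on average 40.7 ± 9.86 TPM (SD, n = 3). The m1 replicates gave 0.25, 0, 0.92 and 0.29 TPM, the m2 replicates 0.08, 0.77, 0.44 and 0 TPM, and the m3 replicates 0.09, 0.24, 8.11 and 0 TPM. Thus 3 tubules were listed at 0, in 1 library of each set, and the groups did not overlap. Tubules averaged 0.933 TPM, or 0.280 TPM without replicate 3 of m3. The log2 difference was -4.80 ± 0.50 (SE, limma adjusted p = 5.30e-07), and -5.04 without that library (limma adjusted p = 8.85e-12). Mt2 passed the filter on low values only through its kidney level, so only a lower call was possible. Mt3, a metallothionein best known from brain, was listed at 0 in 11 tubules and at 0.87 TPM in replicate 3 of m3, against 2.69, 2.49 and 2.54 TPM in whole kidney. Mt4, known from stratified epithelium, was listed at 0 in all 15 libraries.

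The pool of Mt1 and Mt2 transcripts and their ratio were then taken as single values per library. The pool had a median of 3.81 TPM over the tubules, and in whole kidney it averaged 458 ± 64.6 TPM (SD, n = 3). The mean log2 difference of the pool was -7.25 (two-sided exact permutation p = 0.0022, or 0.00879 adjusted over 4 tests, lower in 12 of 12 tubules). That p is the smallest that the 455 arrangements allow. Without replicate 3 of m3 the difference was -7.71 (exact permutation p = 0.00275). The ratio of Mt2 to Mt1 was 0.0973 ± 0.0156 (SD, n = 3) in whole kidney and 0.0713 ± 0.0610 (SD, n = 12) in the tubules. Over the 9 tubules with Mt2 above 0, the log2 ratio differed from whole kidney by -0.18 (two-sided exact permutation p = 0.682, or 0.896 adjusted), less than the spread between libraries. Dropping the 3 tubules listed at 0 raises the ratio in the tubules.

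**Figure D1:**
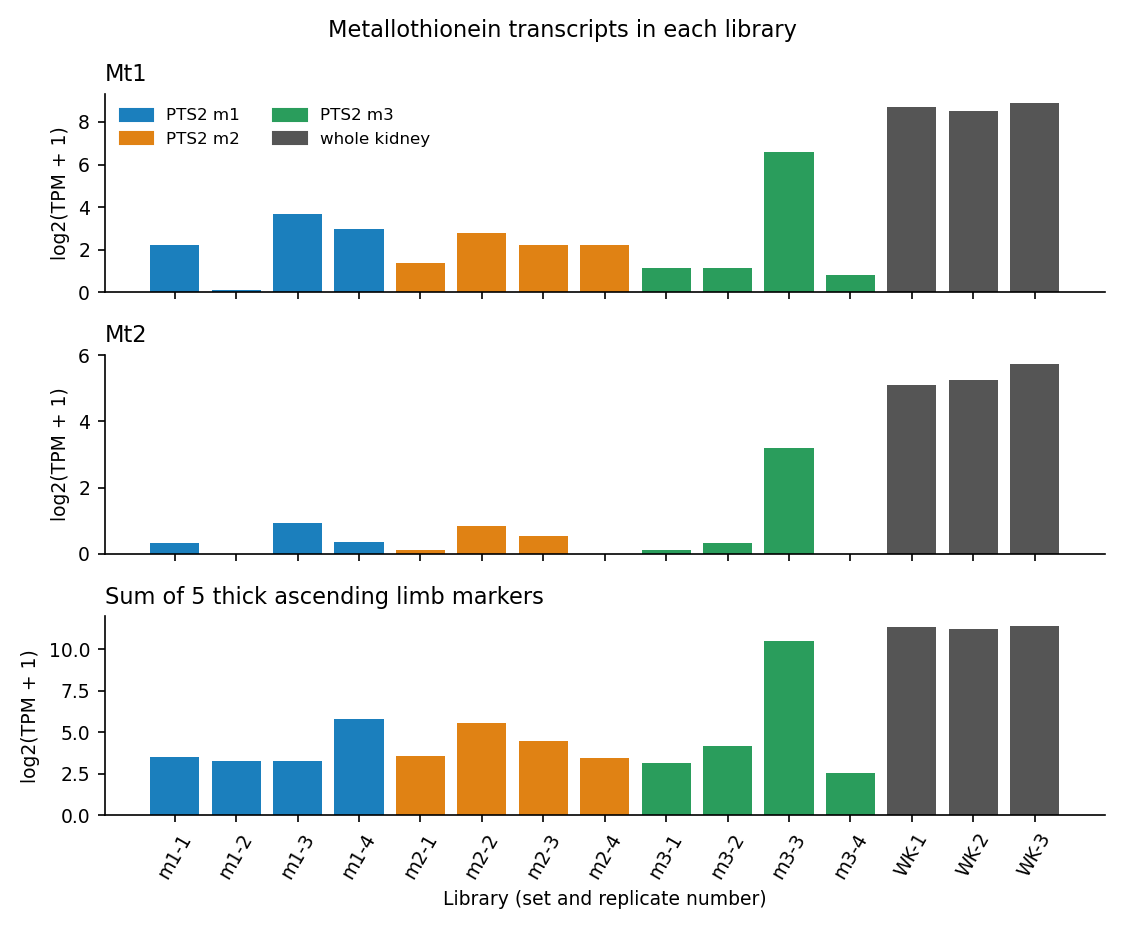
Levels of Mt1, Mt2 and the sum of 5 thick ascending limb markers in each of the 15 libraries, as log2(TPM + 1). Bars start at 0, colours mark the PTS2 sets m1, m2 and m3 and whole kidney (WK). Replicate 3 of m3 has the highest tubule bar in all 3 panels. In TPM its Mt1 and Mt2 were at 22.8% and 19.9% of the kidney mean.

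Replicate 3 of m3 carried 22.8% of the kidney level of Mt1, 19.9% of that of Mt2 and 33.8% of that of Mt3. In the same library the thick ascending limb markers Umod (uromodulin), Slc12a1 (the sodium-potassium-chloride cotransporter) and Kcnj1 (a potassium channel) were at 62.2%, 45.2% and 18.3% of their kidney means. The other 11 tubules held at most 2.84% of the kidney Mt1 level and at most 2.26% of that of Mt2. Of those 11, replicate 4 of m1 and replicate 2 of m2 had the largest marker sums, 2.17% and 1.78% of the kidney mean, and their Mt1 was at 1.64% and 1.39%. Replicate 3 of m1 had the second-highest Mt1 of all tubules, 2.84% of the kidney level, with marker sum at 0.335%. Replicate 2 of m1 had the lowest Mt1, 0.0144%, with nearly the same marker sum, 0.332%. The part of thick ascending limb RNA in the Mt1 values was not tested.

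**Figure D2:**
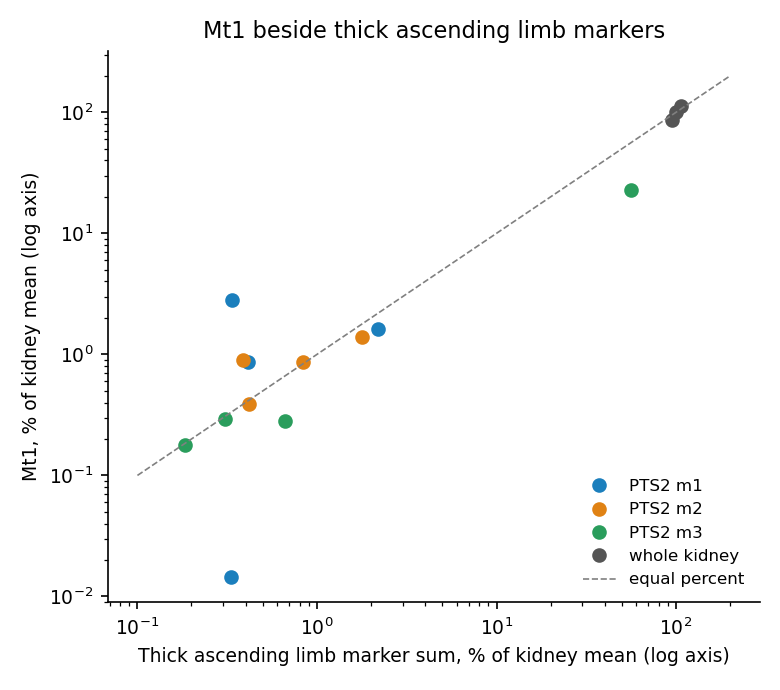
Mt1 against the summed thick ascending limb markers in each library, both as percent of the kidney mean on log axes, coloured by group, with a dashed line of equal percent. Replicate 3 of m3 lies at 56.1% and 22.8%, and the other 11 tubules lie at or under 2.17% and 2.84%.

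The genes whose levels were most like Mt1 over the 12 tubules were sought among 6446 genes that averaged 10 TPM or more in the tubules. By Pearson r of log2(TPM + 1), the 5 highest were Slc12a1 (r = 0.88), Spp1 (r = 0.86), Umod (r = 0.85), Egf (r = 0.84) and Wfdc2 (r = 0.83). Without replicate 3 of m3 these became 0.60, 0.55, 0.48, 0.47 and 0.44, so the likeness rests in large part on that library. Entry to the search did so too for Slc12a1, which averaged 13.98 TPM with that library and 1.52 TPM without it. Egf and Wfdc2 had tubule medians of 4.11 and 6.135 TPM, against 338.91 and 81.11 TPM in that library. Mt1 and Mt2 were themselves correlated at r = 0.92 (Spearman rho = 0.79), and at 0.79 without replicate 3 of m3. All points share the depth and the sets of the same libraries, and these values are descriptions.

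With the deposited TPM, Mtf1 was also lower in the tubules, but by far less than Mt1 and Mt2. It was at 9.86, 13.24, 7.47 and 9.68 TPM in m1, at 8.66, 11.62, 10.03 and 9.05 TPM in m2, at 13.27, 11.61, 13.99 and 12.93 TPM in m3, and at 14.40, 15.76 and 14.57 TPM in whole kidney. The tubules were all below the kidney libraries, but the highest tubule was within 1 TPM of the lowest kidney library. Tubules averaged 10.95 ± 2.12 TPM (SD, n = 12) and kidney libraries 14.9 ± 0.741 TPM (SD, n = 3). The log2 difference was -0.43 ± 0.15 (SE, limma adjusted p = 0.0261). This call did not hold under other scalings: with median-of-ratios rescaling the difference was -0.16 (limma adjusted p = 0.403), and with quantile normalization it turned to 0.069 (limma adjusted p = 0.717). It was also lost on leaving out any 1 of the 3 kidney libraries (limma adjusted p up to 0.102).

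The scale matters for the moderate differences here, and why the scalings part was not tested. The median log2 difference of all 12039 genes tested was -0.27 with the deposited TPM, -0.0030 after median-of-ratios rescaling and 0.15 after quantile normalization. The 1165 genes called higher and 4996 called lower became 2828 and 2860 with median-of-ratios rescaling, and 4096 and 2266 with quantile normalization.

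Slc30a1, which encodes ZnT1, the exporter of zinc across the plasma membrane, was higher in the tubules. The m1 replicates gave 15.78, 14.55, 10.70 and 10.03 TPM, the m2 replicates 16.73, 15.25, 11.14 and 10.06 TPM, the m3 replicates 20.04, 15.30, 15.33 and 14.99 TPM, and whole kidney 8.96, 9.73 and 7.30 TPM. All 12 tubules were above all 3 kidney libraries, by a narrow margin in replicate 4 of m1 and of m2. The mean was 14.2 ± 3.07 TPM (SD, n = 12) against 8.66 ± 1.24 TPM (SD, n = 3), a ratio of 1.63. The log2 difference was 0.63 ± 0.18 (SE, limma adjusted p = 0.00763), and it was 0.89 and 1.24 under the 2 rescalings. Without replicate 3 of whole kidney the adjusted p was 0.0584 (limma). Thus, of the 3 MTF1 targets, Mt1 and Mt2 were lower and Slc30a1 was higher in the same tubules.

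Slc39a8 showed the largest excess among the members. It encodes ZIP8, a carrier of zinc, manganese, iron and cadmium at the plasma membrane. It was at 83.33, 50.06, 58.91 and 35.79 TPM in m1, at 114.40, 97.71, 60.75 and 57.75 TPM in m2, at 103.50, 92.46, 71.97 and 59.06 TPM in m3, and at 32.28, 32.40 and 29.70 TPM in whole kidney. No tubule overlapped the kidney range, although replicate 4 of m1 came close to it. The mean was 73.8 ± 24.2 TPM (SD, n = 12) against 31.5 ± 1.53 TPM (SD, n = 3), a ratio of 2.35. The log2 difference was 1.13 ± 0.27 (SE, limma adjusted p = 0.00206) and stayed past the threshold under every alternative run, with values from 1.07 to 1.42.

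Slc39a14 encodes ZIP14, the closest relative of ZIP8 in substrates. Its level was 42.59, 21.68, 30.25 and 19.87 TPM in m1, 87.00, 72.88, 52.97 and 39.17 TPM in m2, 95.49, 59.01, 58.41 and 59.19 TPM in m3, and 21.82, 40.56 and 32.52 TPM in whole kidney. The m1 tubules lay across the kidney range, while all m3 tubules and 3 of 4 m2 tubules were above it. The log2 difference of 0.63 ± 0.38 did not pass the threshold with the deposited TPM (SE, limma adjusted p = 0.179). With median-of-ratios rescaling it was 0.91 (limma adjusted p = 0.0443) and with quantile normalization 0.92 (adjusted p = 0.0349).

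Slc39a5, which encodes ZIP5, known from the basolateral membrane of gut and pancreas cells, was lower in the tubules. It was at 24.67, 18.21, 19.68 and 15.96 TPM in m1, at 28.25, 27.72, 22.21 and 24.18 TPM in m2, at 15.37, 12.45, 13.46 and 10.68 TPM in m3, and at 42.14, 26.59 and 37.34 TPM in whole kidney. Only the 2 highest m2 tubules reached the lowest kidney library. The mean was 19.4 ± 5.99 TPM (SD, n = 12) against 35.4 ± 7.96 TPM (SD, n = 3), and the log2 difference was -0.87 ± 0.24 (SE, limma adjusted p = 0.00668). It was -0.59 and -0.57 under the median-of-ratios and quantile scalings, where the limma adjusted p was 0.0618 and 0.0633.

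Slc39a4, the main carrier of zinc uptake in the gut, was hardly detected. It was listed at 0 in 8 tubules and at 0.01, 0.02, 0.03 and 0.01 TPM in the other 4. Whole kidney gave 0.29, 0.60 and 0.83 TPM. It did not reach the mean of 1 TPM needed for the test.

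**Figure D3:**
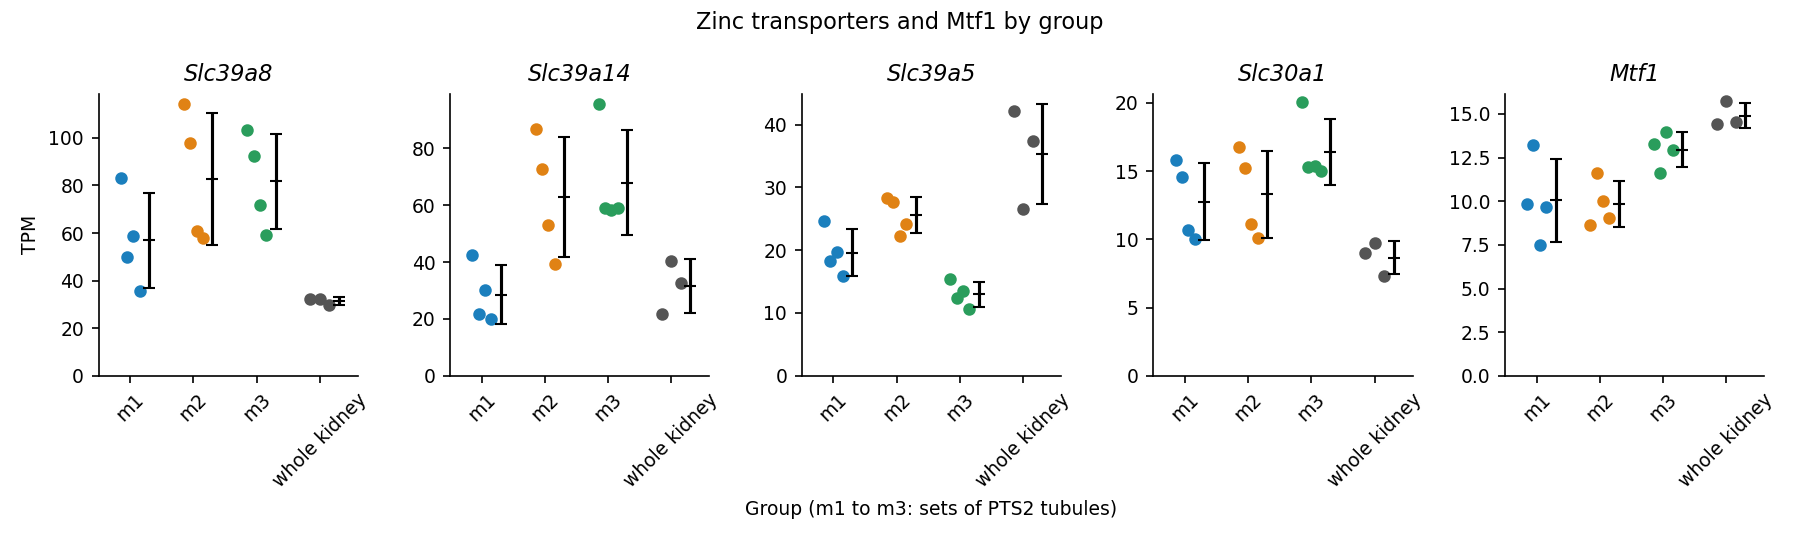
TPM of Slc39a8, Slc39a14, Slc39a5, Slc30a1 and Mtf1 by group. Points are libraries, black marks are the group mean with SD (n = 4 per PTS2 set, n = 3 for whole kidney), and every axis starts at 0. Slc39a8 and Slc30a1 lie above the kidney points in all tubules, and Slc39a14 and Slc39a5 differ between the sets.

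In all, 7 of the 8 members were tested against whole kidney, and 2 were called higher (Slc30a1 and Slc39a8) and 4 lower (Mt1, Mt2, Mtf1 and Slc39a5). Mt2 entered the test only through its kidney level, so only a lower call was possible for it. Over all genes tested 51.2% were called, 9.68% higher and 41.5% lower, so a call as such was common. The libraries of both groups did not overlap for 2 members above and 4 below (Mt1, Mt2, Mtf1 and Slc39a4). Of all genes tested 5.76% and 32% did not overlap, and Slc39a4, being untested, has no place in that comparison. The median log2 difference of the tested members was -0.43, and that of all genes tested was -0.27. In these bulk samples, fewer cells of a type and less RNA per cell cannot be told apart.

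The remaining zinc transporters were read from the same fit. Of the 24 Slc30a and Slc39a genes, 18 were tested: 3 were higher in the tubules, 7 were lower and 8 did not pass the threshold. Of all genes tested 9.68% were called higher and 41.5% lower, so the count of lower transporters was near the background. Besides Slc30a1 and Slc39a8, the higher one was Slc39a11 (ZIP11), at 60.6 ± 10.7 TPM (SD, n = 12) against 36.3 ± 1.77 TPM (SD, n = 3), or 0.70 ± 0.15 on the log2 scale (SE, limma adjusted p = 0.000914). Its lowest tubule, at 41.44 TPM, was above the highest kidney library, at 38.37 TPM. The largest shortfalls were those of Slc39a13 (ZIP13, a carrier of the Golgi and vesicles) and Slc39a6 (ZIP6, a plasma membrane carrier). Slc39a13 was at 19.97 ± 2.71 TPM against 38.1 ± 1.67 TPM, or -0.91 ± 0.11 on the log2 scale (SE, limma adjusted p = 4.87e-06). Slc39a6 was at 1.33 ± 0.559 TPM against 3.25 ± 0.0321 TPM, a difference of -0.90 ± 0.19 (SE, limma adjusted p = 0.000742), but only -0.041 after quantile normalization. Slc30a2 (-0.65), Slc30a4 (-0.35), Slc39a3 (-0.34) and Slc39a7 (-0.28) were also called lower. These 4 lost the call with median-of-ratios rescaling, where Slc39a7 turned to 0.013, and with quantile normalization Slc39a3 turned to 0.094 (limma adjusted p = 0.404). Slc30a4 turned under quantile normalization to 0.35 and was called higher there (limma adjusted p = 0.00742). With 1 kidney library left out, calls ended for Slc30a2 (without replicate 2 or 3, limma adjusted p up to 0.0852), Slc30a4 (without replicate 3, adjusted p = 0.0692), Slc39a3 (without replicate 1 or 2, up to 0.0812) and Slc39a7 (without replicate 2 or 3, up to 0.169). The median over the 18 genes was -0.28, beside -0.27 for all genes tested.

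**Figure D4:**
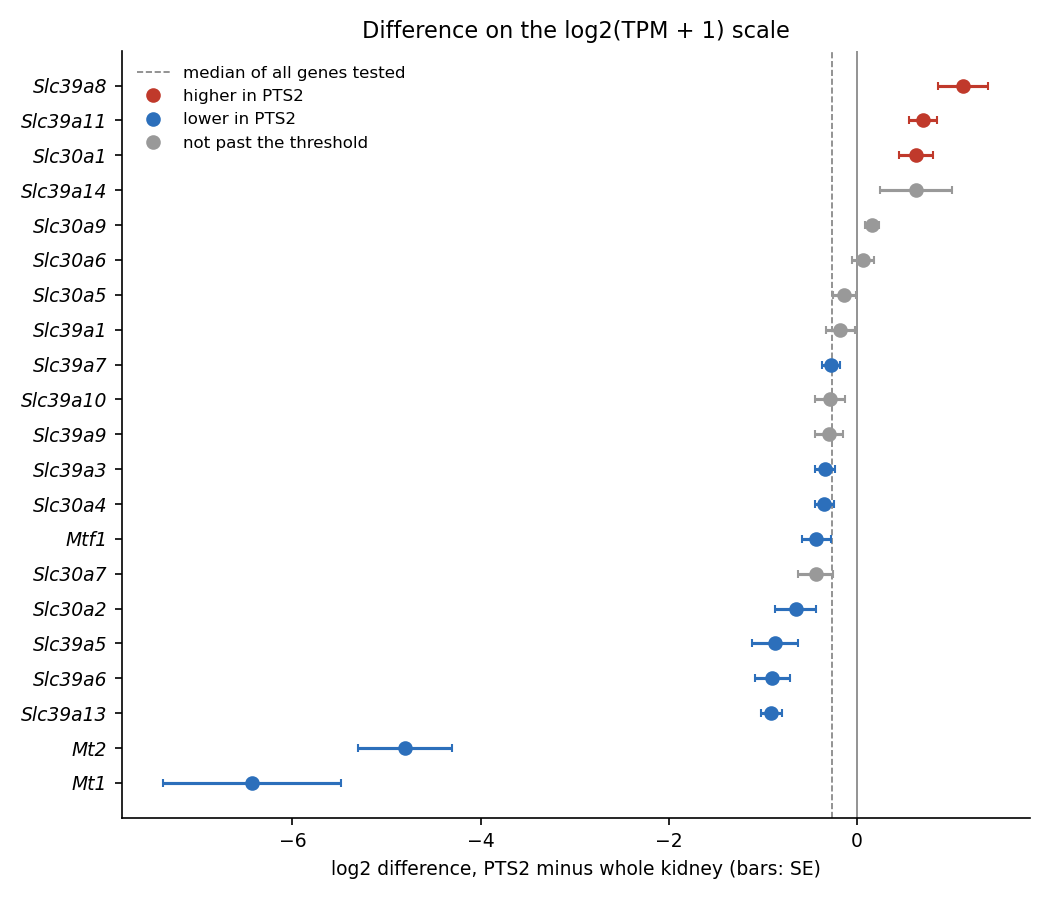
Log2 difference, PTS2 minus whole kidney, on the log2(TPM + 1) scale with its SE, for Mt1, Mt2, Mtf1 and the 18 tested zinc transporters. Colours mark genes called higher, called lower or not past the threshold, and the dashed line is the median of all genes tested (-0.27). Mt1 and Mt2 lie at -6.43 and -4.80, and all transporters lie between -0.91 and 1.13.

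The order of levels within the tubules put Slc39a8 near the top. By mean TPM the first 6 of the 24 genes were Slc30a9 (139.7), Slc39a7 (92.7), Slc39a8 (73.8), Slc39a11 (60.6), Slc30a5 (60.2) and Slc39a14 (53.2). Slc30a9 exceeded Slc39a7 in 12 of 12 tubules, by more than the spread of their difference. From Slc39a7 down to Slc39a14 no neighbours in the order differed by more than that spread. Slc39a5 was the 11th and Slc30a1 the 13th in the tubules, and Slc39a4 the 22nd. In whole kidney Slc39a8 was the 9th, Slc39a14 the 8th, Slc39a5 the 7th, Slc30a1 the 15th and Slc39a4 the 19th. The summed level of each family lay close together in both kinds of sample: 285 ± 26.5 TPM in tubules and 287 ± 8.50 TPM in whole kidney for Slc30a, and 366 ± 67.7 TPM and 345 ± 17.4 TPM for Slc39a (SD, n = 12 and n = 3). These sums were not tested.

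**Figure D5:**
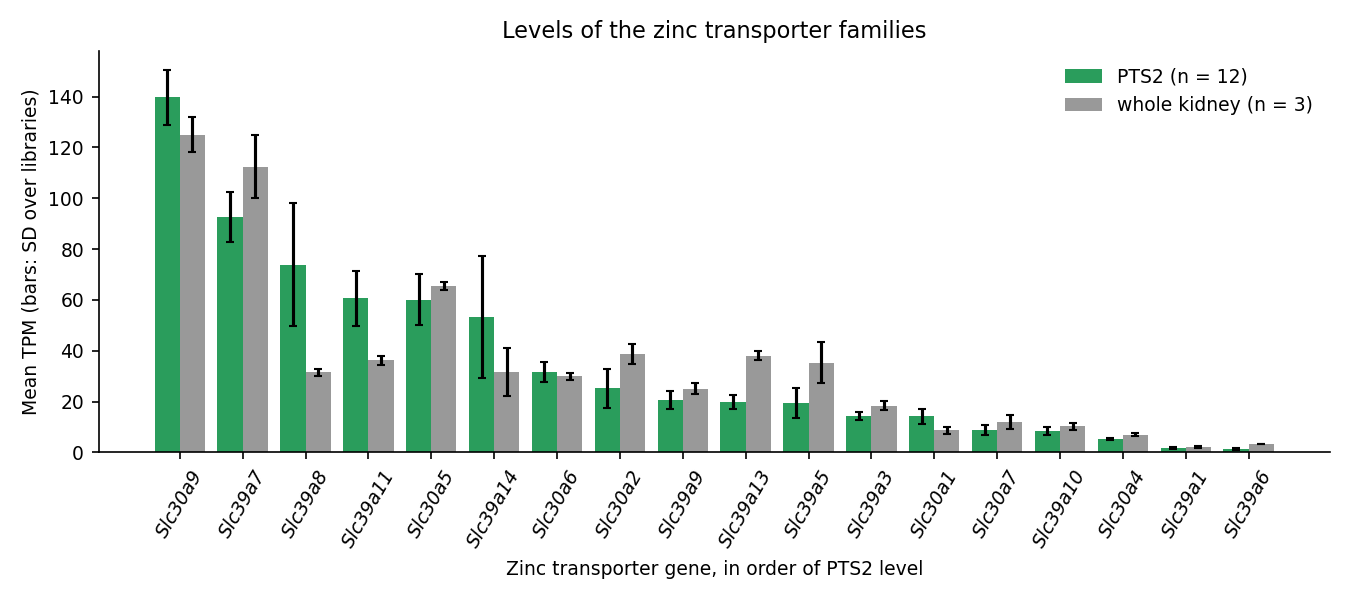
Mean TPM of the 18 zinc transporter genes that averaged at least 1 TPM in PTS2, in order of their PTS2 level, with SD over libraries (n = 12 PTS2, n = 3 whole kidney). Slc39a8 is the third bar pair, at 73.8 in PTS2 and 31.5 in whole kidney.

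Among the 3 tubule sets, Slc39a14 and Slc39a5 differed, in unlike ways. Of the 6 members tested, these 2 were called by the F test over the sets, and 3.02% of all 11300 genes tested were. Mt2 and Slc39a4 did not reach the mean of 1 TPM. Slc39a14 averaged 28.6 ± 10.4 TPM in m1, less than in m2 (63.0 ± 21.2 TPM) or m3 (68.0 ± 18.3 TPM; SD over 4 tubules), with a limma adjusted p of 0.0357 for the F test. All m3 tubules were above all m1 tubules, a separation found for 6.37% of all genes, and m3 exceeded m1 by 1.25 ± 0.27 on the log2 scale (SE, limma adjusted p = 0.0261), where 2.23% of all genes were called higher. No member was called between m2 and m1 in the fit without a replicate block, where 0.54% of all genes were. For Slc39a14 that difference was 1.11 ± 0.27 (limma adjusted p = 0.112, and 0.0310 without replicate 1 of m1) and that of m3 from m2 was 0.14 ± 0.27 (adjusted p = 0.957). The Slc39a14 calls were close to the threshold. The F test lost it in 9 of the 12 fits that left out 1 library, all but those without replicate 1 of m1 or replicate 1 or 4 of m2 (limma adjusted p from 0.0131 to 0.113), and the m3 against m1 difference lost it in 6 of 12, without replicate 2, 3 or 4 of m1 or replicate 1, 2 or 3 of m3 (p up to 0.0922). In those fits the m3 against m1 difference stayed between 1.08 and 1.46.

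Slc39a5 averaged 12.99 ± 1.96 TPM in m3, against 19.6 ± 3.69 TPM for the m1 and 25.6 ± 2.89 TPM for the m2 tubules (SD over 4 tubules; limma adjusted p = 0.00662 for the F test). Every m3 tubule was below every tubule of the other sets, a separation found for 2.67% of all genes against m1 and 2.99% against m2. The log2 difference of m3 from m2 was -0.93 ± 0.14 (SE, limma adjusted p = 0.00335), where 0.805% of all genes were called lower, and it kept its call on leaving out any 1 library (-1.01 to -0.85). The difference of m3 from m1 was -0.55 ± 0.14 (limma adjusted p = 0.0535). It passed the threshold with quantile normalization (-0.67, limma adjusted p = 0.00941), with median-of-ratios rescaling (-0.64, adjusted p = 0.0134), with the filter at 10 TPM (adjusted p = 0.0418) and without mitochondrial genes (adjusted p = 0.0463). The difference of m2 from m1 was 0.38 ± 0.14 and was not called (SE, limma adjusted p = 0.364). By their means, Slc39a5 and Slc39a14 were thus ordered differently over the sets, with m3 lowest for Slc39a5 and m1 lowest for Slc39a14. For Slc39a8, Slc30a1, Mtf1 and Mt1 the F test gave limma adjusted p values of 0.432, 0.476, 0.291 and 0.987. The Mt1 and Mt2 pool did not differ between the sets beyond the spread within them (exact permutation test of the F statistic, p = 0.896), nor did their log2 ratio over 9 tubules (exact permutation test, p = 0.393).

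Within the sets, the importers varied together with segment markers. In each of the 3 sets the tubule with the highest Slc39a8 also had the highest Slc39a14, Slc39a5, Slc30a1 and Slc7a13, an S3 transporter. In each set the tubule with the lowest Slc39a8 had the lowest Slc30a1 and the highest Slc22a8, an organic anion transporter of the earlier segments. The first of these tubules was replicate 1 and the second replicate 4 in all 3 sets, and what the numbers stand for is not given in the labels. Over the 12 tubules, Slc39a8 correlated with Slc39a14 at r = 0.88 (Spearman rho = 0.90), with Slc30a1 at r = 0.77 (rho = 0.87), with Slc7a13 at r = 0.93 (rho = 0.92) and with Slc22a8 at r = -0.83 (rho = -0.85). Without the 2 tubules farthest from the median of Slc39a8 these r values were 0.78, 0.68, 0.86 and -0.70. After the set means were removed they were 0.90, 0.83, 0.95 and -0.84. Slc39a5 and Slc39a14 showed r = 0.047 over the 12 tubules and 0.84 after the set means were removed. These are descriptions over libraries that share sets and scaling. Whether position along the tubule underlies them was not tested.

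The genes most like Slc39a14 over the 12 tubules were Lap3 (leucine aminopeptidase, r = 0.97), Etv6 (a transcriptional repressor, r = 0.97), Shoc2 (r = 0.96), Glb1l2 (r = 0.96) and Slitrk6 (r = 0.96). Their r changed by less than 0.01 without replicate 3 of m3.

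Genes of related pathways were read for comparison. Of 10 copper-handling genes, all tested, none was called higher in the tubules, 4 were lower and 6 did not pass the threshold. Over all genes tested 9.68% were called higher and 41.5% lower, so the copper genes were near the background. The lower ones included the copper-exporting ATPase Atp7a, at 3.66 TPM against 8.88 TPM (log2 difference -1.10 ± 0.16, SE, limma adjusted p = 2.18e-05), and Slc31a2, at 14.1 TPM against 27.7 TPM (-0.93 ± 0.12, adjusted p = 5.73e-06). Sco2 and Commd1 were the other two, and their direction turned under quantile normalization (0.11) and median-of-ratios rescaling (0.0065). Without a kidney library, Sco2 (replicate 2 or 3, limma adjusted p up to 0.0541) and Commd1 (replicate 1, adjusted p = 0.111) also lost their calls. Of 8 genes induced by corticosteroids, which also induce metallothioneins, 7 were tested, 5 were lower in the tubules and 2 did not pass the threshold, beside 41.5% of all genes called lower. One of the 5, Ddit4, averaged 0.764 TPM in tubules and 2.23 TPM in whole kidney and passed the filter only through the kidney. Fkbp5, a chaperone of the glucocorticoid receptor, was at 33.4 TPM in tubules and 78.2 TPM in whole kidney (-1.19 ± 0.22, SE, limma adjusted p = 0.000245). Of the others, Per1 and Ddit4 lost their calls with quantile normalization, and Tsc22d3 with median-of-ratios rescaling or without replicate 1 or 3 of whole kidney (limma adjusted p up to 0.116). Of 7 genes of the oxidative stress response, 6 were tested, 3 were higher and 1 (Srxn1) was lower, beside 9.68% and 41.5% of all genes. Those higher were Gclm and Gclc, the subunits of the glutathione-making ligase, and the quinone reductase Nqo1. Gclc lost its call without any 1 of the 3 kidney libraries (limma adjusted p up to 0.0764). Gclm was at 923 TPM against 490 TPM (0.91 ± 0.11, SE, limma adjusted p = 2.34e-06) and Nqo1 at 142 TPM against 71.2 TPM (0.98 ± 0.12, adjusted p = 3.43e-06).

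Over the sets, 2 of the 6 corticosteroid-induced genes tested were called, Sgk1 and Tsc22d3, beside 3.02% of all genes tested. Of the 4 not called, m3 differed from m1 by 0.26 for Fkbp5, 0.33 for Klf9, -0.089 for Per1 and -0.48 for Errfi1. Mt1 was not called either. The SE of its log2 differences between sets was 1.11, against 0.15 for Sgk1, so a moderate change in Mt1 could not be seen. Sgk1, a kinase, ranged from 143.28 to 231.1 TPM over the m1 tubules, from 80.11 to 105.7 TPM over m2 and from 13.32 to 19.02 TPM over m3, with no overlap between any sets. Its log2 difference of m3 from m1 was -3.32 ± 0.15 (SE, limma adjusted p = 8.93e-08). Whole kidney spread from 68.22 to 176.19 TPM. Tsc22d3 was lower in m3 than in m1 by -0.56 ± 0.10 and than in m2 by -0.80 ± 0.10 (SE, limma adjusted p = 0.00836 and 0.000651). Hmox1, haem oxygenase, was the one oxidative stress gene called by the F test over the sets (limma adjusted p = 0.0281). That call was lost in 6 of the 12 fits that left out 1 library: replicate 3 of m1, replicate 2 of m2 or any of m3 (adjusted p up to 0.107). Hmox1 was lower in m3 than in m1 by -0.53 ± 0.11 (SE, limma adjusted p = 0.0177). Nqo1 was higher in m3 than in m1 by 0.38 ± 0.09 (SE, limma adjusted p = 0.0434), where 2.23% of all genes were called higher. It kept that call in 3 of the 12 fits, and its F test was not called (limma adjusted p = 0.0941).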

How the data were processed

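RNA-Seq was run on 12 PTS2 tubule and 3 whole kidney libraries; per the labels' protocols, RNA was amplified with a kit for very low input. Per the submitters' processing notes, STAR 2.5.1b, RSEM 1.2.31 and the build GRCm38.p5 were used. The authors deposited 1 table of TPM for 47069 genes, normalized to transcript length and a common total per library; the 4 columns with the authors' means (TPM) and standard errors (a signal never below 0) were not used. Depth is unknown, so no count test was run. TPM of every sample are shared out of a fixed total, so that a gene abundant in 1 kind of sample lowers the others.

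Libraries were grouped by their description labels. Genes averaging 1 TPM or more were fitted on log2(TPM + 1) with limma 3.58.1 in R 4.3.3 (eBayes with trend, Benjamini-Hochberg over all genes tested, threshold 0.05). Against whole kidney the set was a correlated block (correlation 0.0669); among the sets there was no covariate. These fits were tested on simulated data. Noise there was drawn independently for each gene and library, and changes were planted only in genes averaging 10 TPM or more. That test does not cover deviations shared between libraries or genes at lower levels. Single values were compared by exact permutation in Python 3.11.15 (scipy 1.17.1). The log2 ratio of Mt2 to Mt1 is undefined in 3 tubules and was taken over the other 9. Named genes were the 8 members, genes of related lists and the 5 most like Mt1 and Slc39a14; the members and lists were chosen with earlier results of these data known. Gene positions came from GENCODE M21 and promoters from RefSeq. No stretch of 50 bases in Mt1 or Mt2 transcripts was shared with another gene. Alternatives were other pseudocounts, filters, scalings, blocks and variance settings, and each library left out.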

Additional observations from a re-analysis of the deposited data

Results flagged for a closer look

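Within sets of 4 tubules, 7 of 27 comparisons had 1 library far from the other 3. Chance gives about 1 in 20 such cases, but these 7 are not independent: the Mt1 and Mt2 pool repeats its parts, and where 3 tubules are listed at 0 any value above 0 stands apart. In m3, replicate 3 had 95.27 TPM of Mt1 against 1.23 TPM in the next tubule, 8.11 TPM of Mt2 against 0.24 TPM, and 103.38 TPM of the Mt1 and Mt2 pool against 1.41 TPM. The thick ascending limb markers of that library summed to 1440.62 TPM, against at most 55.83 TPM in the other 11 tubules, and their part in these values was not tested. In the same set, replicate 1 had 20.04 TPM of Slc30a1 against 15.33 TPM in the next tubule, and 95.49 TPM of Slc39a14 against 59.19 TPM. Slc39a4 was at 0.03 TPM in replicate 1 of m2 and at 0.01 TPM in replicate 3 of m3, while the other 3 tubules of each set were listed at 0.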

How the results depend on the processing

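Against whole kidney, 6 members were called, and 5 to 7 under the alternatives and 4 to 6 with 1 library left out. Without 1 kidney library the 4 to 5 calls rested on fewer samples. Among the sets, 2 members were called, and 1 with no filter on low values, with no trend in eBayes, or without replicate 3 of m3 and replicate 4 of m1 together (tried after seeing the data). With 1 library left out the count was 1 to 2, and with the replicate block below it was 3. For m2 against m1 it was 0, and 0 to 1 with 1 library left out. For m3 against m1 it was 1. It became 0 with no filter or without both those libraries, and 2 with quantile normalization, median-of-ratios rescaling, mitochondrial genes left out, or the filter raised to 10 TPM. With 1 library left out it was 0 to 1. For m3 against m2 it was 1 throughout. The Mt1 and Mt2 pool differed from whole kidney by -7.25 also with 1 mean per set, where the exact permutation p was 0.1, the smallest that 3 against 3 allows.

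Directions turned for Mtf1 with quantile normalization (0.069), Slc30a4 (0.35), Slc39a3 (0.094) and Sco2 (0.11) with the same, and Slc39a7 (0.013) and Commd1 (0.0065) with median-of-ratios rescaling. For Hmox1, m2 against m1 turned to 0.011 without replicate 4 of m1, alone or with replicate 3 of m3 (-0.17 to 0.011 with 1 library left out). For Slc39a14, m3 against m2 lay between -0.064 and 0.31 with 1 library left out. Of the values of single genes under alternatives, 1027 kept direction and side of the threshold, 82 lost and 16 gained it, and 10 turned. The causes were not tested.

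The replicate numbers do not pair the tubules by the labels. Deviations of same-numbered tubules correlated at a mean r of 0.143, with 7 of 12 pairs over 0.1 and the lowest at 0.0254. In 20 of 24 comparisons with another set, a tubule correlated best with its own number. All 6 pairs numbered 1 or 4 were over 0.1 (0.157 to 0.273). With the replicate number as a block, 3 members were called over the sets, Slc39a8 (limma adjusted p = 0.0293) besides Slc39a5 and Slc39a14. For m2 against m1 it was 1, Slc39a14 (1.11, adjusted p = 0.00307), and for m3 against m1 it was 3, with Slc39a5 at -0.55 (adjusted p = 0.00944). In that fit 888 genes in place of 341 were called over the sets. Genes called against whole kidney were 6161, but 9399 with no filter and 3113 with the filter at 10 TPM. Over the sets they were 196 with no filter and 175 without both libraries.

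TPM carry no depth, which limits Mt2, Mt3 and Slc39a4 most: a listed 0 gives no upper limit.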
